A study of Mus musculus with 4 samples.

Results

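The 9 genes described here encode receptors for chemokines, the small secreted proteins that steer lymphocytes through tissues. They are Ccr2, Ccr4, Ccr6, Ccr7, Ccr8, Ccr9, Cxcr3, Cxcr4 and Cxcr5, a list set by gene name with earlier results of these data known. They are 9 of the 22180 genes that the array measured with a probe set naming a single gene. Each of the 9 had 1 such probe set. The cells were naive CD4+ T cells, sorted as CD62L high, CD44 low and CD25 negative from pooled spleens and lymph nodes of C57BL/6 mice that were either TACI-/- or wild type (WT). TACI, encoded by Tnfrsf13b, is a receptor for the B cell survival factors BAFF and APRIL, and the knockout is not stated to be limited to any cell type. Each genotype had 2 arrays (Affymetrix Mouse Gene 2.0 ST), called biological replicates; the labels give neither the age of the mice nor the number of mice in each pool. The question was how these receptors differ between TACI-/- and WT cells.

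A chemokine receptor spans the membrane several times, couples to an inhibitory G protein, and turns a gradient of its ligand into directed movement and integrin activation. A naive T cell enters a lymph node with CCR7, which reads CCL19 and CCL21, and carries CXCR4, which reads the stromal chemokine CXCL12. Activated and differentiated cells change the set: CXCR5 leads follicular helper cells towards CXCL13 in B cell follicles, CXCR3 marks type 1 cells, CCR4 and CCR8 are found on type 2 and regulatory cells, CCR6 on type 17 cells and B cells, CCR9 on gut-homing cells, and CCR2 on monocytes and some effector cells.

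Cxcr4, Cxcr5 and Ccr8 stood higher on both TACI-/- arrays than on both WT arrays by 2.11-fold, 1.76-fold and 1.68-fold, while Ccr7 differed by 1.02-fold. In the limma fit, with Benjamini-Hochberg adjustment over 13782 tested genes, no receptor reached an adjusted p under 0.05; the lowest was that of Cxcr4, 0.0819. Of the 9 genes, 6 passed the low-value filter, which asked for at least 2 arrays at or above the 40th percentile of that array (3.74 to 3.77 log2 units), and Ccr2, Ccr6 and Ccr9 did not. Ccr4 passed only through its TACI-/- arrays, so its higher side was fixed by the filter. Levels are log2 values of a probe set, and since probe sets bind with different strength the levels of different receptors were not ranked against each other. In bulk RNA, fewer cells with a transcript and less transcript per cell cannot be told apart.

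**Figure D1:**
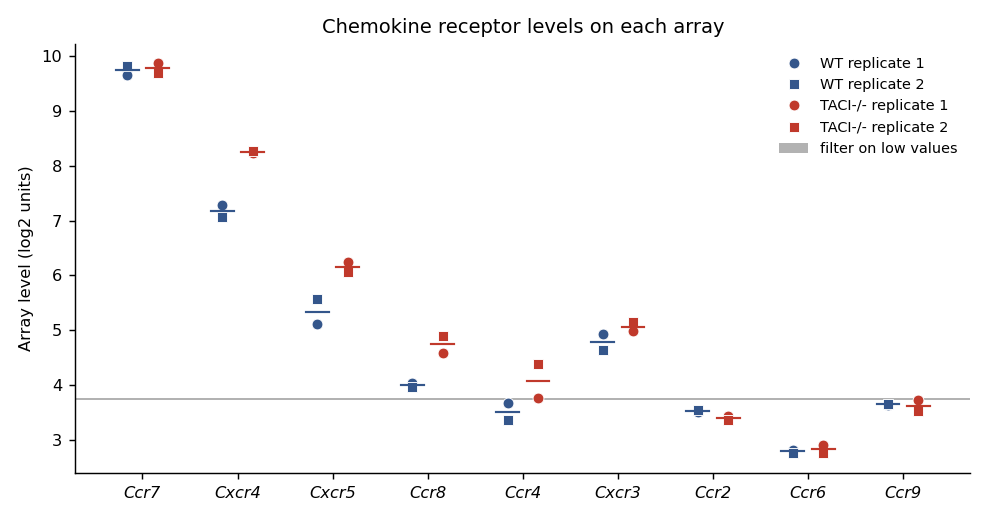
Array level in log2 units (vertical axis) of each of the 9 receptor genes (horizontal axis), with WT arrays in blue and TACI-/- arrays in red, circles for replicate 1, squares for replicate 2 and a short line at each genotype's mean. The grey band is the low-value filter at 3.74 to 3.77: Cxcr4 shows the widest gap between genotypes, Ccr7 overlaps, and Ccr2, Ccr6 and Ccr9 lie under the band.

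Ccr7, the receptor that brings naive T cells into lymph nodes, was measured at 9.87 and 9.68 log2 units in TACI-/- cells and at 9.66 and 9.82 in WT cells. The genotypes overlapped, and replicates were farther apart (0.18 in TACI-/- and 0.16 in WT cells) than the genotype means. The log2 fold change was 0.03 ± 0.14 (SE), with a 95% interval from -0.31 to 0.38 (limma adjusted p = 0.979). Its sign was not fixed, and turned to -0.06 without TACI-/- replicate 1 and to -0.05 without WT replicate 1. The Ccr7 gene lies on chromosome 11 (chr11:99144199-99155077, GRCm38.p6 in RefSeq), the chromosome that also holds Tnfrsf13b.

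Cxcr4, the CXCL12 receptor, which holds cells in bone marrow and takes part in movement within lymphoid tissue, was at 8.23 and 8.27 log2 units in TACI-/- cells and at 7.28 and 7.07 in WT cells. Both TACI-/- arrays exceeded both WT arrays, and the gap of 0.95 between the closest arrays of the genotypes was wider than the distance between replicates, 0.04 in TACI-/- and 0.21 in WT cells. The log2 fold change was 1.08 ± 0.14 (SE; 95% interval 0.74 to 1.41). Its unadjusted limma p of 0.000157 ranked 26 among the 13782 tested genes, and the adjusted p of 0.0819 missed the threshold. It passed with a stricter low-value filter at the 60th percentile (adjusted p = 0.0332, with 9203 genes tested) and with a mean-variance trend and robust prior (adjusted p = 0.0104), and over all alternatives its adjusted p ran from 0.0104 to 0.62.

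The Cxcr4 gene lies on chromosome 1 (chr1:128588199-128592299, minus strand, GRCm38.p6). Its promoter window is shown because this gene had the widest difference among the receptors; the window runs from 250 bases before to 50 bases after the RefSeq transcript start (chr1:128592250-128592549, minus strand, read 5′ to 3′). Capitals mark, in order, a CACCC box, an NRF1 core and a TATA box, each searched on both strands.
Cxcr4: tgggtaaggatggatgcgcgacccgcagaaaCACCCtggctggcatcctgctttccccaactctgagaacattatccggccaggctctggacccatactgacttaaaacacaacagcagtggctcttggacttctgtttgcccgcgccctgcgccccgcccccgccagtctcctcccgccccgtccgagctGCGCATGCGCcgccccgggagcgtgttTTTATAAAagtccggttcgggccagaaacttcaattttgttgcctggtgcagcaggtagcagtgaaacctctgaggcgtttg
The first letter of the TATA box TATAAA stood 30 bases before the start, and overlapping matches on the other strand extend the capitals of both this motif and the NRF1 core GCATGCGC, which stood 57 bases before it. The window was 59.3% G and C, against a median of 52.7% over all 32817 windows of the RefSeq table. A TATA box was found in 13.6% of those windows, an NRF1 core in 2.71% and a CACCC box in 57.5%.

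Cxcr5, the CXCL13 receptor that draws lymphocytes to B cell follicles, was at 6.25 and 6.05 log2 units in TACI-/- cells and at 5.11 and 5.57 in WT cells. The genotypes did not overlap, although the WT arrays were 0.46 apart, nearly as much as the gap of 0.49 between the genotypes. The log2 fold change was 0.81 ± 0.19 (SE; 95% interval 0.37 to 1.26; unadjusted p = 0.00382 and adjusted p = 0.299, limma). It ran from 0.58 without WT replicate 1 to 1.04 without WT replicate 2, and the first of these is just under a 1.5-fold change. Cxcr5 lies on chromosome 9 (chr9:44511787-44526444, GRCm38.p6).

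Ccr8, a receptor for CCL1 and in mice CCL8, known from type 2 and regulatory T cells, was at 4.59 and 4.90 log2 units in TACI-/- cells and at 4.03 and 3.96 in WT cells. The WT arrays sat just above the low-value filter and close together, and both TACI-/- arrays stood 0.56 or more above them. The log2 fold change was 0.75 ± 0.15 (SE; 95% interval 0.38 to 1.12; unadjusted p = 0.00219 and adjusted p = 0.256, limma). Differences this near the low end of an array are uncertain in size. The Ccr8 promoter is shown to set it beside that of Cxcr4 (chr9:120091883-120092182, plus strand, read 5′ to 3′), with a CACCC box, here on the opposite strand as GGGTG, in capitals.
Ccr8: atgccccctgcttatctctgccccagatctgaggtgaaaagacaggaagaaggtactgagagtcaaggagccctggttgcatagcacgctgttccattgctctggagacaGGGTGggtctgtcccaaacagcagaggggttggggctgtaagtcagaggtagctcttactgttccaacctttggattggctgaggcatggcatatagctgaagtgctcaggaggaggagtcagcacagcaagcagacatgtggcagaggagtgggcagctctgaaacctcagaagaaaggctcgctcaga
This window held no TATA box and no NRF1 core, and was 54% G and C; the CACCC box, which began 140 bases before the start, was the only kind of searched motif in it.

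Ccr4, the CCL17 and CCL22 receptor of skin-homing, type 2 and regulatory T cells, was at 3.77 and 4.39 log2 units in TACI-/- cells and at 3.68 and 3.35 in WT cells. Both WT arrays were below the filter and TACI-/- replicate 1 was barely above its own floor of 3.74, so the high value came from TACI-/- replicate 2. The log2 fold change was 0.56 ± 0.23 (SE; 95% interval 0.01 to 1.11; unadjusted p = 0.0472 and adjusted p = 0.568, limma). Without TACI-/- replicate 2 it was 0.25, and without TACI-/- replicate 1 it was 0.87. The Ccr4 window is shown because it was the only member window with an AP-1 site (chr9:114496495-114496794, minus strand, read 5′ to 3′); it belongs to a transcript start inside the gene's span (chr9:114490316-114505476). Capitals mark the AP-1 site and a CACCC box read as GGGTG.
Ccr4: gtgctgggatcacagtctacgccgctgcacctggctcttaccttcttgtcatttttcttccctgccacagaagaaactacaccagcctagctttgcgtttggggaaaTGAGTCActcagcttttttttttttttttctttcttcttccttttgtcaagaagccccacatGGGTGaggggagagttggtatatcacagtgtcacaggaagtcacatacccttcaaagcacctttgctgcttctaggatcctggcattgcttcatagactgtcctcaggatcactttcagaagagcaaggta
The AP-1 site TGAGTCA began 143 bases before that start, next to a GGAAA core of NFAT sites left in lower case. An AP-1 site, searched as TGANTCA on both strands, was in 7.81% of all windows.

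The promoter windows of the receptors shared little. The table of RefSeq windows used here held 8 for 7 of the 9 genes (Ccr6 had several starts), and those of Ccr7 and Cxcr5 were not analysed here. On both strands 9 motifs were searched: besides those above, the cAMP response element TGACGTCA, its half-site TGACG, the NR4A element AAAGGTCA, the NFAT core GGAAA and the GC box GGGCGG. The CACCC box was in 4 of the 8 windows, those of Cxcr4, Ccr8, Ccr4 and Ccr9. The NFAT core was in 5 of 8 (Ccr2, Ccr4, Cxcr4 and both windows of Ccr6), against 61.3% of all windows. The GC box was in the Cxcr4 window alone among the members (35.6% of all windows), the half-site in 1 Ccr6 window (20.8%), and neither the full cAMP element (1.79%) nor the NR4A element (1.51%) was in any. A match of letters is not evidence of a bound site, and its absence says nothing of regulation elsewhere.

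Cxcr3, the receptor for CXCL9, CXCL10 and CXCL11 on type 1 and memory T cells, was at 4.98 and 5.16 log2 units in TACI-/- cells and at 4.93 and 4.64 in WT cells. The genotypes were separated by only 0.05, less than the 0.29 between the WT arrays. The log2 fold change was 0.28 ± 0.16 (SE; 95% interval -0.10 to 0.66; limma adjusted p = 0.682). Cxcr3 is X-linked (chrX:101731535-101734147, GRCm38.p6).

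The 3 receptors below the filter are given as levels. Ccr9, the receptor for the gut and thymus chemokine CCL25, was at 3.72 and 3.52 in TACI-/- cells and at 3.63 and 3.66 in WT cells, just under the floor. Ccr2, the CCL2 receptor, was at 3.44 and 3.37 in TACI-/- cells and at 3.50 and 3.55 in WT cells, and was the one member of the 9 with both TACI-/- arrays below both WT arrays. Ccr6, the CCL20 receptor, was at 2.91 and 2.77 in TACI-/- cells and at 2.82 and 2.75 in WT cells. All 12 of these values lie under the floor of their array, so they cannot show a difference between genotypes. In the fit without the filter their log2 fold changes were -0.02 for Ccr9, -0.12 for Ccr2 and 0.05 for Ccr6.

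**Figure D2:**
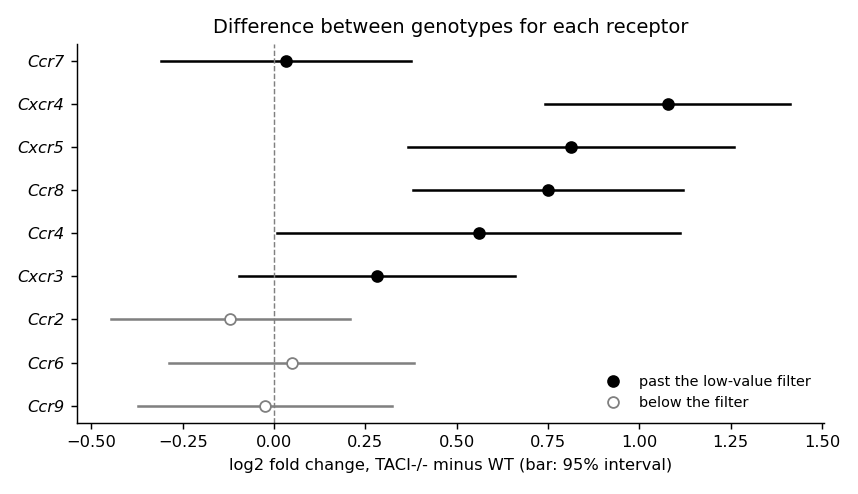
Difference between genotypes of each receptor gene as log2 fold change, TACI-/- minus WT (horizontal axis), with its 95% interval from limma; filled points passed the low-value filter, open points did not. The intervals of Cxcr4, Cxcr5, Ccr8 and Ccr4 lie above 0, the last from 0.01, and those of the other 5 genes include 0.

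Read against all tested genes, the receptors past the filter were called at 0 of 6 at an adjusted p under 0.05, where 19 genes (0.138%) were called. At an unadjusted limma p under 0.05, 4 of 6 were higher in TACI-/- cells (Cxcr4, Ccr8, Cxcr5 and Ccr4), against 4.94% of all tested genes; without variance moderation it was 2 of 6, Cxcr4 and Ccr8. With at least a 1.5-fold change as well, 3 of 6 were higher, against 1.42%. Both TACI-/- arrays were above both WT arrays for 5 of 6, against 20.5%. The receptors were chosen with earlier results of these data known and Ccr4 entered through its high group, so these shares describe the list and do not test it. Over all 9 genes in the fit without the filter, the median log2 fold change was 0.28, against 0.01 over 22180 genes.

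Some genes followed the same course over the 4 arrays. For Cxcr4, Cxcr5 and Ccr8, the 3 tested genes with the nearest profile were found by the root-mean-square distance between log2 values centred on each gene's mean, with predicted genes, antigen receptor segments and small RNAs set aside. Nearest to Cxcr4 were Maf, at a distance of 0.05 log2 units, Rgs1 at 0.06 and Ifit3b at 0.08. Maf was at 5.46 and 5.43 in TACI-/- cells and at 4.57 and 4.29 in WT cells, with WT replicate 2 the lowest array, as for Cxcr4. Nearest to Cxcr5 were Fasl (0.06), Cited2 (0.06) and Errfi1 (0.07), each with WT replicate 2 above WT replicate 1. Nearest to Ccr8 were Sh3gl3 (0.01), Cnnm2 (0.04) and Atp6v1fnb (0.06). Ifit3b, Sh3gl3 and Atp6v1fnb passed the filter only through their TACI-/- arrays, so their higher side was fixed by the filter. With 4 arrays and 13782 genes, near profiles of this kind are a description of these arrays.

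No difference was detected in the other receptors of the family. Of 19 listed names, which include older symbols, 14 were measured and 7 passed the filter. None passed the test (0 of 7 at adjusted p under 0.05, and 0 of 7 at an unadjusted p under 0.05, limma), 6 were on the negative side (51.8% of all tested genes were positive), and the median log2 fold change was -0.14, against 0.01 over all tested genes. Both TACI-/- arrays lay below both WT arrays for 5 of the 7, Cxcr1, Cxcr2, Cxcr6, Ackr2 and Ackr3, against 18.1% of all tested genes. Cxcr1, a receptor best known from neutrophils, was at 4.16 and 4.42 in TACI-/- cells and at 5.11 and 4.45 in WT cells, so WT replicate 1 stood apart. Cxcr6, a receptor of memory and tissue-resident T cells, was at 4.12 and 4.10 in TACI-/- cells and at 4.31 and 4.19 in WT cells. The decoy receptor Ackr3, which scavenges CXCL12, was at 4.57 and 4.43 in TACI-/- cells and at 4.68 on both WT arrays. The genotypes overlapped for Cx3cr1 and Xcr1.

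Chemokine receptor genes are known to lie in clusters. Of the 9 members, 5 lie on chromosome 9 (Cxcr5, Ccr4, Ccr8, Ccr9 and Ccr2). Within 1 Mb of Ccr2 lie Ccr9, Cxcr6, Xcr1, Ccr1, Ccr1l1 and Ccr3, of which Cxcr6 and Xcr1 passed the filter (the log2 fold change of Cxcr6 was -0.14). For each of the 9 members, the 10 annotated probe sets numbered next to its own were all of genes on the member's chromosome.

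The ligands of these receptors are made largely by stromal and myeloid cells. Of 14 measured ligands of the 9 receptors 6 passed the filter, none passed the test (0 at an unadjusted p under 0.05 as well, limma), and their median log2 fold change was 0.02. Cxcl13, the ligand of CXCR5, was at 4.99 and 5.12 in TACI-/- cells and at 4.85 and 4.86 in WT cells. Cxcl12, the ligand of CXCR4, passed the floor on 1 array, TACI-/- replicate 1, being at 4.01 and 3.75 in TACI-/- cells and at 3.67 and 3.57 in WT cells, and was not tested. Ccl25, the CCR9 ligand, was at 4.81 and 5.45 in TACI-/- cells and at 5.33 and 5.28 in WT cells.

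The shared signalling machinery behind the receptors had differences on both sides of 0. Of 24 measured genes 23 were tested, 11 with a positive and 12 with a negative difference; the median log2 fold change was -0.04, with none past the adjusted threshold (1 at an unadjusted p under 0.05, limma). That gene was Plcb3, a phospholipase activated by G proteins, at 4.43 and 4.45 in TACI-/- cells and at 4.93 and 5.03 in WT cells (log2 fold change -0.54 ± 0.13, SE; adjusted p = 0.311). Gnai2, the main inhibitory G protein subunit of lymphocytes, had -0.04, Dock2, the exchange factor that activates Rac downstream of chemokine receptors, 0.03, and the arrestin gene Arrb2, whose product uncouples receptors, -0.09. Gnai1 was at 4.39 and 4.51 in TACI-/- cells and at 4.04 and 4.23 in WT cells, with a log2 fold change of 0.32, and Elmo1, a partner of Dock2, had 0.17.

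Among 12 tested genes of the same homing programme, 8 had a positive log2 fold change, beside 51.8% of all tested genes, and the median was 0.15. At an unadjusted limma p under 0.05, 3 were higher (4.94% of all tested genes), and none passed the adjusted threshold. Cd69, an early activation antigen that keeps S1PR1 off the surface, was at 9.57 and 9.48 in TACI-/- cells and at 8.86 and 8.56 in WT cells (log2 fold change 0.82 ± 0.15, SE; limma adjusted p = 0.211). Ptger4, a prostaglandin receptor, had 0.50, and Gpr183, an oxysterol receptor that positions lymphocytes at the edge of follicles, was at 9.61 and 9.52 in TACI-/- cells and at 9.20 and 9.19 in WT cells. S1pr1, the exit receptor, had 0.10, Klf2, a transcription factor that drives S1pr1, 0.19, and Foxo1, a transcription factor upstream of Ccr7 and Klf2, 0.23.

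**Figure D3:**
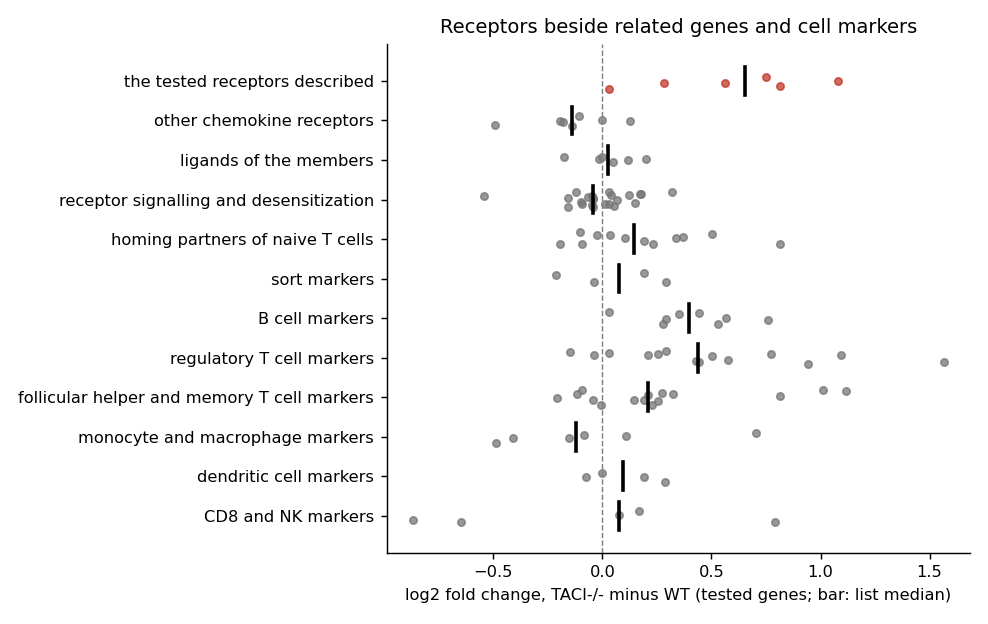
log2 fold change, TACI-/- minus WT (horizontal axis), of the tested genes of each list (rows), with the 6 tested receptors in red and a black bar at each list's median; vertical scatter within a row has no meaning. The medians of the other receptors, ligands and signalling genes lie at -0.14, 0.02 and -0.04, and those of the B cell and regulatory T cell markers at 0.40 and 0.44.

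Markers of cells that carry these receptors were measured beside them. Cd3e and Cd4, which define the sorted cells, were between 10.4 and 11.6 on all 4 arrays. The genes of the markers that were gated low had log2 fold changes of 0.19 (Cd44) and 0.29 (Il2ra, CD25), neither past an unadjusted p of 0.05. Of 13 measured B cell markers 8 were tested, all with a positive log2 fold change and a median of 0.40. At an unadjusted limma p under 0.05 stood 4 (4.94% of all tested genes were higher by that measure), and none passed the adjusted threshold. The 4 were Ly86, H2-Aa, Bank1 and H2-Ab1. Cd79a, Cd79b, Cd22 and Pax5 were not among them (unadjusted limma p from 0.074 to 0.851). Ly86 passed the filter only through its TACI-/- arrays, so its sign was fixed; without it, 7 of 7 were positive and 3 were at an unadjusted p under 0.05. Over all 8 tested, Ly86 included, the summed linear level was 288 and 230 in TACI-/- replicates 1 and 2. It was 182 and 200 in WT replicates 1 and 2. Ms4a1 was below the floor on all 4 arrays, as was Ccr6, which B cells express, and Cd79a was at 5.09 on both TACI-/- arrays and at 4.63 and 4.96 in WT cells. The part of B cell RNA in the Cxcr5 difference was not tested.

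Regulatory T cells carry CCR8 and CCR4, and several of their markers also mark activated cells. Of 16 measured, 14 were tested, 12 with a positive log2 fold change and a median of 0.44; Ctla4 rose (limma adjusted p = 0.0246), and 7 were higher at an unadjusted p under 0.05, beside 51.8% positive and 4.94% higher among all tested genes. Ikzf2, Tigit and Lrrc32 passed the filter only through their TACI-/- arrays; without them 9 of 11 were positive, 5 were higher at an unadjusted p under 0.05, and the median was 0.43. Over all 14 tested, Ikzf2, Tigit and Lrrc32 included, the summed linear level was 818 and 793 in TACI-/- replicates 1 and 2. In WT replicates 1 and 2 it was 610 and 590. Foxp3, the defining transcription factor, was at 6.19 and 5.98 in TACI-/- cells and at 5.63 and 5.38 in WT cells, and Ikzf2 at 4.33 and 4.44 against 3.41 and 3.49. The follicular helper and memory list had 10 of 15 tested members with a positive log2 fold change, beside 51.8% of all tested genes. Another 5 were negative, and the list median was 0.21. The list's summed linear level was 2105 and 1927 in TACI-/- replicates 1 and 2, and 1663 and 1579 in WT replicates 1 and 2. Such a sum is weighted to the brightest genes. Most of its gap between genotypes came from Cd69, at 9.57 and 9.48 log2 units in TACI-/- cells and at 8.86 and 8.56 in WT cells. The list's 3 members higher at an unadjusted p under 0.05 were Il2rb, Maf and Cd69, with log2 fold changes of 1.11, 1.01 and 0.82 (limma adjusted p from 0.1 to 0.211). Its defining follicular helper gene Bcl6 was at 6.18 and 5.87 in TACI-/- cells and at 6.12 and 6.11 in WT cells. The part of these cells in the differences of Ccr8, Ccr4 and Cxcr5 was not tested.

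Markers of monocytes and macrophages (6 tested, median log2 fold change -0.12, summed linear level 190 to 219 in TACI-/- and 174 to 199.99 in WT cells), dendritic cells (4 tested, median 0.10, 110 to 121 and 98.7 to 119) and CD8 T or NK cells (5 tested, median 0.08, 284 to 307 and 319 to 341) were measured too. The ranges overlapped between genotypes for the first 2 lists, and the CD8 and NK range was lower in TACI-/- cells. In that last list Klrd1 and Cd8b1 had log2 fold changes of -0.87 and -0.65, while the other 3 tested genes were positive, Eomes with 0.79, and none passed the adjusted threshold. Of the 10 measured CD8 and NK genes 5 did not pass the filter, among them Cd8a, which was below the floor on all 4 arrays. In the monocyte list Cd68 had a log2 fold change of 0.71 and Lyz2 -0.49, and Cd14 was below the floor on all 4 arrays.

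The series as a whole had medians of 4.11 to 4.13 log2 units over 41345 probe sets per array, and arrays have no sequencing depth, so their number limits the precision. The targeted gene Tnfrsf13b was at 2.73 and 3.09 in TACI-/- cells and at 2.95 and 3.02 in WT cells, below the floor on all 4 arrays, so it does not check the genotype labels. An exact permutation test of 2 arrays against 2 cannot give a two-sided p under 0.333. The labels do not say how many mice stand behind a replicate. The limma p-values rest on the spread between these samples, with each gene's variance moderated towards that of all tested genes.

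**Figure D4:**
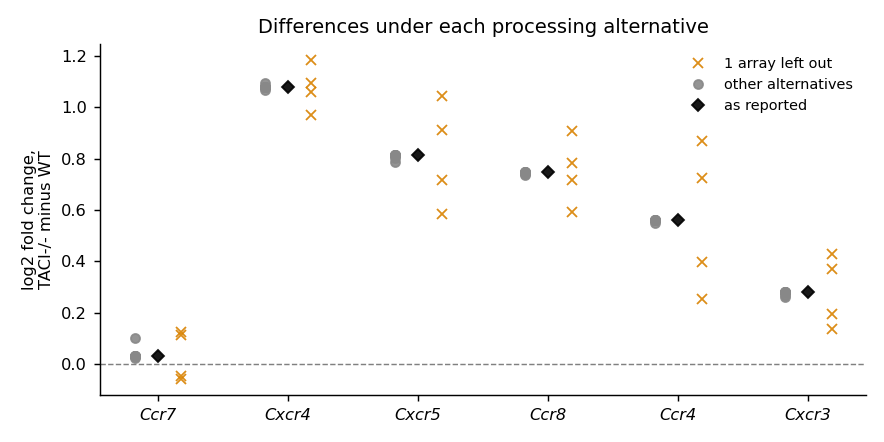
log2 fold change, TACI-/- minus WT (vertical axis), of the 6 tested receptors as reported (black diamonds), with 1 array left out (crosses) and under the other alternatives (grey circles). Cxcr4 stays between 0.97 and 1.18, Ccr4 spreads from 0.25 to 0.87, and Ccr7 falls on both sides of 0.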

How the data were processed

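Naive CD4+ T cells of TACI-/- and WT mice were profiled on Affymetrix Mouse Gene 2.0 ST arrays, per the labels' protocols, with 2 arrays for each genotype. The deposited values are log2 values, 1 per probe set and array; the submitters' processing notes name RMA (background correction, quantile normalization and probe summary) and Partek, with no version. The base of 2 is taken from RMA and from the range, 0.94 to 13.2. Genome build and filters: not given in the sources used here.

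Probe sets with exactly 1 symbol in the platform annotation (23521 of 41345; 1814 had several, 16010 none) were kept, and the brightest stood for each gene. Genes with at least 2 arrays at or above the 40th percentile were fitted with limma 3.58.1 in R 4.3.3 (lmFit and eBayes, two-sided, genotype the only term), with adjustment over all 13782. Differences are TACI-/- minus WT. The fit was tested on simulated data. Promoter windows and coordinates are from RefSeq (GRCm38.p6).

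The members, gene lists and named genes (all members, sort markers, up to 4 per list by p, nearest profiles) were chosen with earlier results of these data known. Named beyond that rule, after their values were seen, were Lrrc32, Gnai2, Dock2, Arrb2, Foxp3, Bcl6, Cd79a, Cd79b, Cd22 and Pax5. So were Ms4a1, Cd14, Cd8a, Cxcl12, S1pr1, Klf2 and Foxo1. The TATA box, GC box and NRF1 motifs were chosen with the windows in view. Alternatives were other filters, centring, a second quantile normalization, averaging a gene's probe sets, no or another moderation of the variance, a block for the replicate number, each array left out and a looser threshold.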

Additional observations from a re-analysis of the deposited data

How the results depend on the processing

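Of 70 alternative values of the 6 tested receptors' differences, 66 kept their direction and side of the threshold. The exceptions were Ccr7, which ran from -0.0585 (without TACI-/- replicate 1) to 0.1242 (without TACI-/- replicate 2) with 1 array left out and was also negative, at -0.0461, without WT replicate 1, and Cxcr4, whose log2 fold change of 1.0779 passed with the stricter filter and with the mean-variance trend and robust prior. Receptors called higher therefore numbered 1 under each of these 2 settings, 0 as reported, and 3 at the looser criterion of an unadjusted p under 0.05 with 1.5-fold. Over all tested genes, 15 were called higher and 4 lower as reported. The counts were 2 and 1 with no filter, 36 and 9 with the stricter filter and again with the trend, 0 and 0 without variance moderation, 10 and 2 after a second quantile normalization, 196 and 121 at the looser criterion, and 0 to 0 in both directions with 1 array left out. With no filter more genes were tested and with the stricter one fewer. The cause of the shifts in these counts was not tested. The replicate numbers are shared only as numbers (deviations of same-numbered arrays correlated at -0.03 across genes); with the replicate block 10 genes were called higher and 3 lower, and no receptor. Each receptor had 1 probe set; fitted among all probe sets with 1 symbol and no filter, the lowest adjusted p was again that of Cxcr4, 0.171. Values near the low-value floor, such as those of Ccr4 and Ccr8, limit what can be said of the size of a difference.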
